A study of Yarrowia lipolytica with 11 samples.

Results

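The strain-by-acid interaction of Yarrowia lipolytica, an oil-accumulating yeast, was examined by RNA sequencing: for each gene, the change that hexanoic acid brought in a mutant strain was set against the change it brought in the wild type. All 11 libraries of the series entered the comparison, and it was made over the 7135 genes of the deposited count table, of which 6301 had enough counts to be tested. The 4 groups were the wild type (wt in the labels) grown untreated (n = 3) or with 1 g/L hexanoic acid (n = 3), and a pex10 deletion strain carrying a plasmid for DGA1 overexpression, grown untreated (n = 2) or with 1 g/L hexanoic acid (n = 3). Per the labels' protocols, both strains were grown in YPC medium from separate colonies and collected in exponential phase. The mutant carries both the deletion and the plasmid, so their effects cannot be told apart. No plasmid is named for the wild type, and the labels do not say how many mutant clones were used.

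Hexanoic acid is a medium-chain fatty acid, and yeasts break fatty acids down by beta-oxidation inside peroxisomes. PEX10 encodes a protein of the peroxisome membrane that acts in the import of the enzymes of this organelle. DGA1 encodes an acyltransferase that completes the synthesis of triacylglycerol, the storage lipid for which this yeast is known. The comparison asks which genes respond to the acid differently when both functions are altered.

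A response is used here for the log2 ratio of the level with acid to the level without it in the same strain. A response difference is the mutant response minus the wild-type response, on the same log2 scale, and is given ± its standard error. A negative response difference therefore marks a gene that rose less, or fell more, in the mutant. The unit of levels is CPM, the count of a gene relative to its library's TMM-scaled total, which are not corrected for gene length, so levels are compared only within a gene. A gene was called when its p in edgeR's quasi-likelihood test of the response difference, adjusted by Benjamini-Hochberg over the 6301 genes, was under 0.05.

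Library totals ran from 9988288 to 17519857 counts. Pearson's correlation of log2 CPM across genes between libraries of 1 group ran from 0.956, for the 2 untreated mutant libraries, to 0.990. The median absolute log2 difference between libraries of 1 group ran from 0.18 to 0.41, with the highest value in the untreated wild type. There replicate 2 correlated at 0.965 and 0.971 with replicates 1 and 3, which correlated at 0.989 with each other. Acid-treated mutant replicate 1 correlated at 0.980 and 0.973 with replicates 2 and 3, against 0.990 between those. Genes are listed by locus tag, apart from mitochondrial genes and noncoding RNAs, and neither the files nor the reference table used here pairs the tags with names. PEX10 and DGA1 were therefore not analysed here, so that the labels of the strains were not checked against the altered genes.

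Responses differed between the strains for 1604 of the 6301 genes tested, 25.5%. The response was lower in the mutant for 974 genes (15.5%) and higher for 630 (10%). The difference was at least 2-fold for 1344 called genes (21.3% of all tested), and 2410 genes (38.2%) had an unadjusted p under 0.05. Differences of at least 4-fold were found for 462 called genes, out of 518 tested genes with a difference of that size (8.2% of all tested). Of the 462, 358 had a lower and 104 a higher response in the mutant. Differences of 16-fold or more were found for 72 called genes, out of 75 tested genes with such a difference. Of the 72, 70 were lower in the mutant. Genes with a lower response in the mutant had a median wild-type response of 1.83 and a median mutant response of 0.13. For genes with a higher response in the mutant these medians were −1.40 and −0.11. Over all genes tested, the median response was −0.01 in each strain.

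Most called genes moved less in the mutant than in the wild type. The absolute response was smaller in the mutant for 1452 of 1604 called genes (90.5%), as it was for 73.3% of all genes tested. By the sign of the fitted responses, 560 called genes (34.9%, against 26.1% of all tested) went up in the wild type and up by less in the mutant. Another 390 (24.3% against 15.5%) went up in the wild type and down in the mutant. A further 365 (22.8% against 26.7%) went down in the wild type and down by less in the mutant. The share that went down in the wild type and up in the mutant, 261 genes, was near that over all genes (16.3% against 14.9%). The mutant went up by more than the wild type in 4 called genes (0.2% against 8.1%) and down by more in 24 (1.5% against 8.8%). The median absolute mutant response was 0.46 for genes called lower and 0.43 for genes called higher, each with a median standard error of 0.25. Signs of mutant responses near 0 are therefore uncertain. These counts describe genes chosen on the same values and carry no test.

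**Figure D1:**
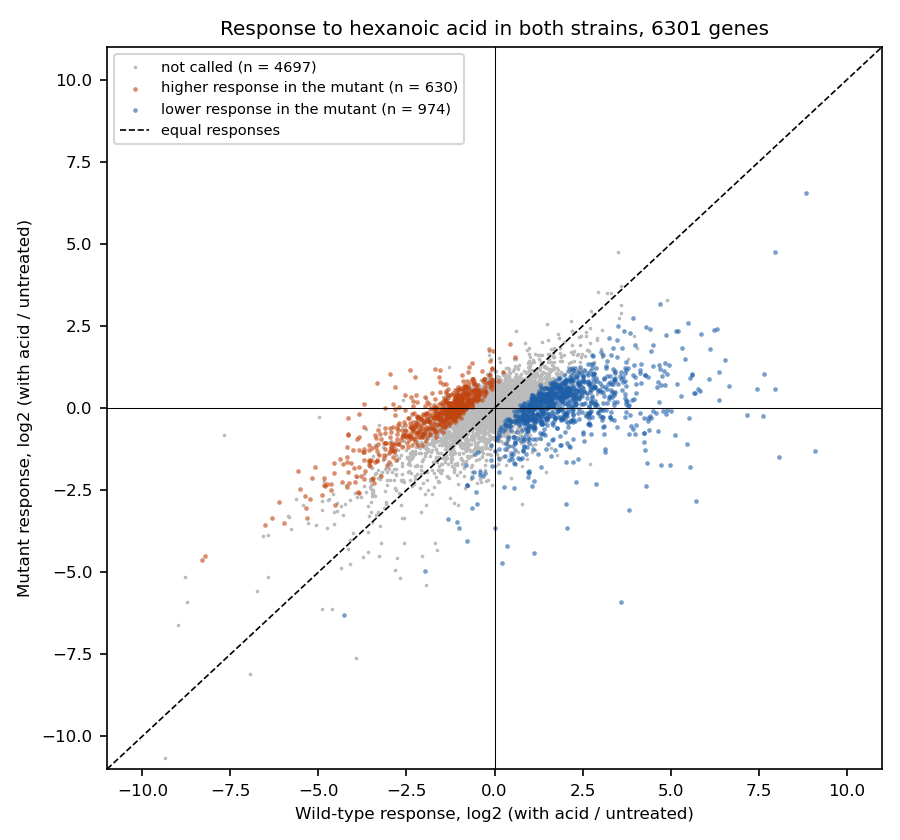
Response of each tested gene in the wild type (horizontal axis) against its response in the mutant (vertical axis), both as log2 of the level with acid over the level without. Orange and blue points are the 630 and 974 genes called with a higher and a lower response in the mutant and grey points are not called. Genes called lower have a median wild-type response of 1.83 and a median mutant response of 0.13. They lie mostly to the right and on both sides of the horizontal zero line, with a median absolute mutant response of 0.46.

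A response of at least 2-fold was present in the wild type alone for 1011 called genes (63%, against 27% of all genes tested). It was present in both strains in the same direction for 193 called genes (12% against 10.3%) and in the mutant alone for 71 (4.4% against 3.9%), shares near those over all genes. It was present in both strains in opposite directions for 41 (2.6% against 0.8%) and in neither for 288 (18% against 58.1%). Among the 193 genes with the same direction, 100 had a higher response in the mutant, with a median wild-type response of −3.57 and a median mutant response of −1.62. The other 93 had a lower response, with medians of 3.59 and 1.23 in the same order. Of the 41 genes with opposite directions, 37 had a lower response in the mutant, with medians of 2.24 and −1.54. Of the 71 genes with such a response in the mutant alone, 57 had a lower response in the mutant, with medians of 0.35 and −1.56.

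The levels of the called genes in single libraries showed where the groups stood. For the 974 genes with a lower response in the mutant, the median log2 level relative to the mean of the untreated wild type was 1.72, 1.77 and 1.89 in the wild-type libraries with acid. It was 1.34 and 1.50 in the untreated mutant libraries and 1.66, 1.51 and 1.51 in the mutant libraries with acid. The untreated wild type lay at 0.08, −0.11 and 0.00, near 0 because levels are given relative to its own mean. These genes were called on the same values, so a distance of other libraries from it is partly built in.

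The 630 genes with a higher response in the mutant mirrored this order. Their median log2 level relative to the untreated wild type was −1.28, −1.39 and −1.49 in the wild type with acid, −0.88 and −1.08 in the untreated mutant, and −1.18, −0.98 and −1.04 in the mutant with acid. In both sets the medians of the untreated mutant lay closer to those of the acid-treated libraries than to those of the untreated wild type. The untreated wild-type libraries enter both the wild-type response and the strain difference without acid. For all genes tested, the library medians stayed between −0.02 and 0.01. Scaling keeps these medians near 0 and rises offset falls in them, so they are no measure of how far genes moved.

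**Figure D2:**
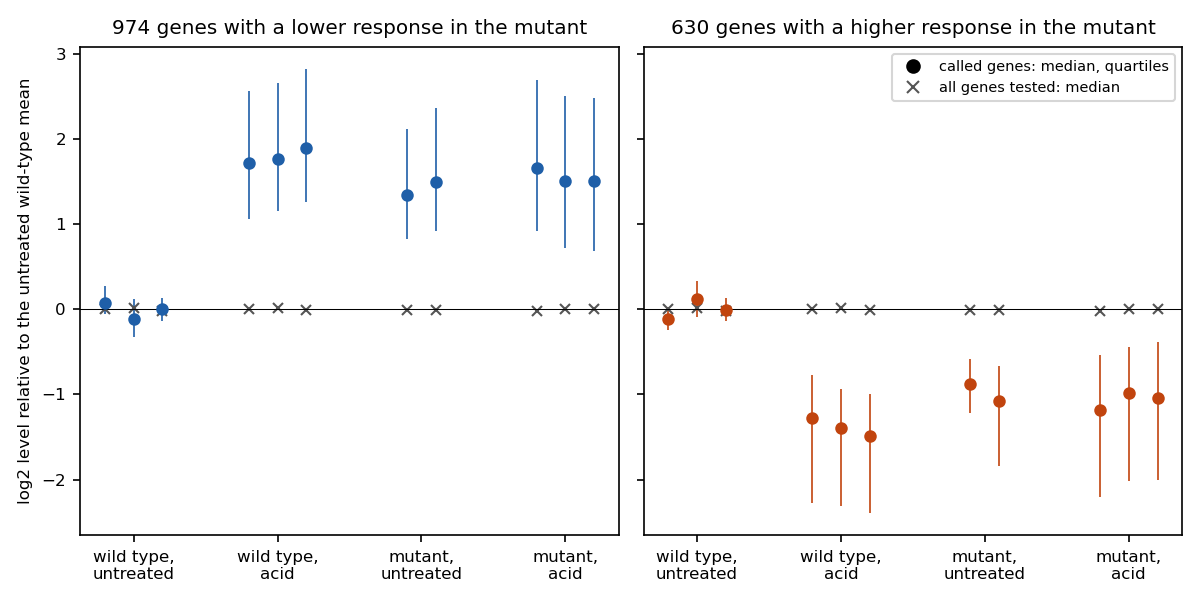
Median log2 level of the called genes in each of the 11 libraries, relative to the mean of the untreated wild type, with bars from the lower to the upper quartile over genes and crosses for the median of all genes tested. In the left panel (974 genes) and the right panel (630 genes) the 3 untreated wild-type libraries sit near 0, and the other 8 libraries lie between 1.34 and 1.89 on the left and between −1.49 and −0.88 on the right.

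A response difference equals the strain difference with acid minus the strain difference without it, so each called gene was also described by where the strains stood apart. The gap between strains was larger without acid for 1327 called genes (82.7%) and larger with acid for 277 (17.3%), against 67.6% and 32.4% of all genes tested. The median absolute strain difference among genes called lower was 1.44 without acid and 0.48 with it. Among genes called higher it was 1.01 without acid and 0.37 with it. Over all genes tested the medians were 0.57 and 0.32.

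The largest of these forms held 671 called genes (41.8%, against 15.9% of all tested), in which the strains differed by at least 2-fold without acid and by less than 1.5-fold with it. In 420 of them the response was lower in the mutant. The medians of these 420 genes relative to the untreated wild type were 1.88 in the wild type with acid, 1.62 in the untreated mutant and 1.91 in the mutant with acid. In the other 251 the medians were −2.23, −1.49 and −2.08 in the same order. The median mutant responses were 0.30 and −0.60. The gaps between the strains are set by the definition of this form, while which strain changed with acid is not. The genes were chosen on the same values, so these medians carry no test.

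The reverse form, under 1.5-fold without acid and at least 2-fold with it, held 67 called genes (4.2%, against 2.5% of all tested). For 46 of these the response was lower in the mutant, with medians of 0.91 in the wild type with acid, 0.16 in the untreated mutant and −0.61 in the mutant with acid. For the other 21 the medians were −1.33, −0.21 and 0.01 in the same order. In 324 called genes (20.2%, against 5.9% of all tested) the order of the strains was swapped, with a gap of at least 1.5-fold in each condition. For 219 of these the untreated mutant stood above the untreated wild type by a median of 1.60, and the mutant with acid stood below the wild type with acid by a median log2 difference of −0.96. In the other 105 the medians were −1.07 without acid and 0.76 with it. The remaining 542 called genes met none of these definitions.

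**Figure D3:**
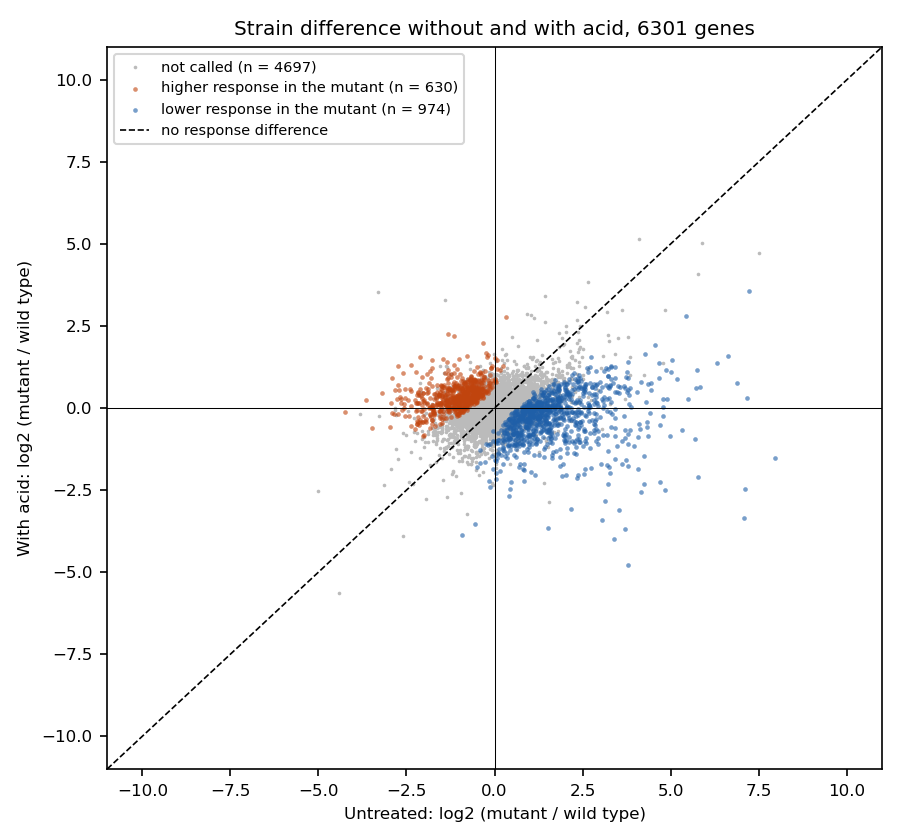
Log2 ratio of mutant to wild type without acid (horizontal axis) against the same ratio with acid (vertical axis) for each tested gene. Called genes (orange, 630 higher; blue, 974 lower response in the mutant) spread along the horizontal axis, with a larger gap without acid in 82.7% of them, while the dashed line marks equal gaps, that is, no response difference.

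The share of genes called rose with the level of expression. Of 961 genes averaging under 10 CPM over all libraries, 14.4% were called, against 24.9% of 3251 genes from 10 to 100 CPM, 30.8% of 1929 genes from 100 to 1000 CPM and 39.4% of 160 genes at 1000 CPM or more. The share with a lower response in the mutant went from 8.1% through 13.4% and 21.5% to 28.7% over these classes, and the share with a higher response was 6.2%, 11.4%, 9.4% and 10.6%. These classes are not independent of the calls, since the level averages all libraries. Genes called lower had higher medians in the other groups than in the untreated wild type, and genes called higher had lower ones. The trends over the classes are thus partly built in. The median standard error of the response difference was 0.57 in the lowest class and 0.33 to 0.37 in the others. By the letter in the locus tag (A to F), the share called lay between 24.6% and 26.4%, with 642 to 1433 genes tested per letter. The share with a lower response ran from 13.4% for letter B to 17.2% for letter C.

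The largest single differences were taken among genes that were called, averaged at least 10 CPM and kept their sign when any library was left out. The condition on the sign removed no called gene. The 8 largest negative response differences ran from −10.41 to −6.95. In all 8 the fitted wild-type response was positive, and in 7 of them the fitted mutant response was negative. The 8 largest positive differences ran from 3.33 to 3.82. In all 8 the fitted wild-type response was negative, and in 6 the fitted mutant response was negative as well. The values of the 2 largest in each direction follow.

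YALI0_E06589g stood at 0.0751, 0.196 and 0.115 CPM in the untreated wild type, 29.1, 107 and 94.2 in the wild type with acid, 12.8 and 24.6 in the untreated mutant and 11.6, 6.86 and 4.22 in the mutant with acid. The untreated wild type was near 0, both mutant groups lay in between, and the wild type with acid was highest, with no overlap between the strains in either condition. The wild-type response was 9.10 ± 0.76 and the mutant response −1.31 ± 0.52, which gave a response difference of −10.41 ± 0.93 (adjusted p = 2.66e-05). The untreated wild type held only 1, 3 and 2 counts, so the fitted size depends on the prior count of the fit. YALI0_E28259g stood at 2.10, 0.131 and 1.27 CPM in the untreated wild type, 140.4, 444 and 350.5 in the wild type with acid, 82.9 and 235 in the untreated mutant and 51.5, 51.6 and 65.6 in the mutant with acid. Without acid the mutant lay above the wild type and with acid below it, and the untreated mutant overlapped the wild type with acid. The response difference was −9.58 ± 0.93 (adjusted p = 5.08e-05). Its untreated wild-type libraries held 28, 2 and 22 counts, and the 2 untreated mutant libraries lay further apart than the 3 mutant libraries with acid. The value for YALI0_E28259g was −8.64 without untreated mutant replicate 2 and −10.24 without untreated wild-type replicate 1.

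YALI0_B13134g stood at 1456, 1620 and 1841 CPM in the untreated wild type, 74.8, 179.8 and 122 in the wild type with acid, 112 and 324 in the untreated mutant and 309.7, 314 and 84.0 in the mutant with acid. The untreated wild type stood alone at a high level, and the other 8 libraries overlapped. The wild-type response was −3.71 ± 0.56 and the mutant response 0.12 ± 0.56, which gave a response difference of 3.82 ± 0.80 (adjusted p = 0.00559). YALI0_C08415g stood at 59.3, 61.1 and 79.1 CPM in the untreated wild type, 0.151, 0.111 and 0.31 in the wild type with acid, 24.9 and 5.56 in the untreated mutant and 0.791, 0.262 and 0.814 in the mutant with acid. Both strains were low with acid, and the untreated mutant lay below the untreated wild type. The response difference was 3.71 ± 1.04 (adjusted p = 0.0234), with 2, 1 and 4 counts in the wild type with acid and 10, 4 and 11 in the mutant with acid. The YALI0_C08415g call was lost without acid-treated wild-type replicates 1 (3.53) or 2 (3.50) or acid-treated mutant replicate 3 (3.45). Its size moved most with the untreated mutant, to 5.15 without replicate 1 and 2.99 without replicate 2. For YALI0_B13134g the value was 4.78 without untreated mutant replicate 2.

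**Figure D4:**
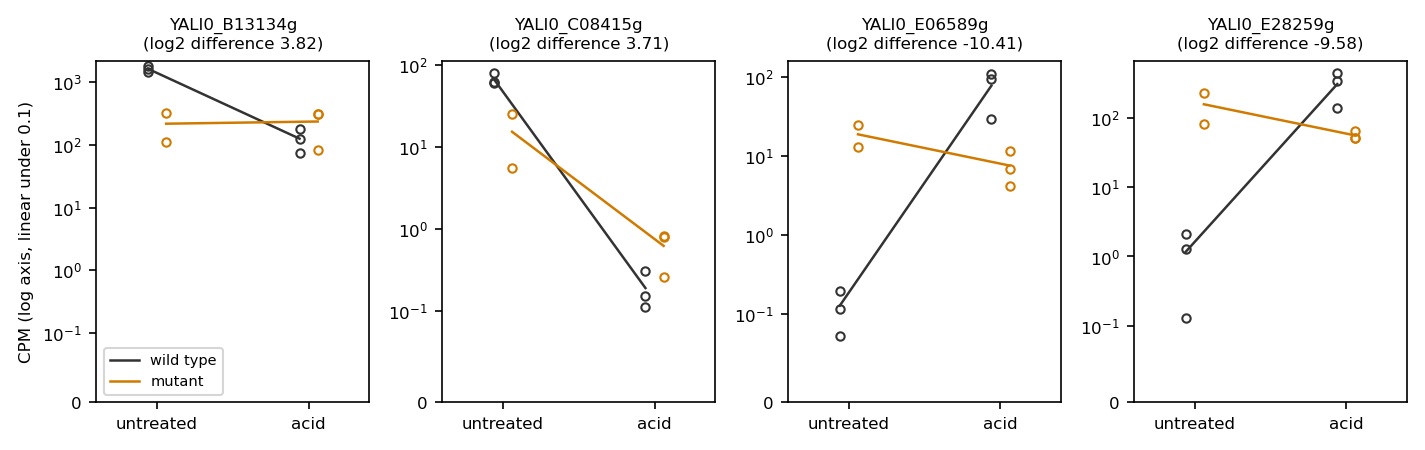
Level in CPM, on an axis that is logarithmic above 0.1 and linear below, of the 2 genes with the largest positive and the 2 with the largest negative response difference, without and with hexanoic acid. Circles are libraries (black, wild type; orange, mutant) and lines join the arithmetic group means. The black lines are steeper than the orange lines in all 4 panels, and the lines of the 2 strains cross in all 4.

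Genes listed by name in the count table gave no called response difference. Of 14 mitochondrially encoded genes for subunits of the respiratory chain and ATP synthase, 8 were tested and 0 were called by edgeR, against 25.5% of all genes, with 0 at an unadjusted p under 0.05, against 38.2%, and 0 called by DESeq2. Of the 8, 7 averaged under 10 CPM, a class in which 14.4% of genes were called, so a count of 0 says little. Their response differences ran from −1.29 to 0.17, with a median of −0.46 against −0.01 over all genes. Of these, 3 are given with values that had been seen before they were chosen. atp9, a subunit of ATP synthase, stood at 18.8, 7.44 and 13.8 CPM in the untreated wild type, 12.8, 39.9 and 33.0 in the wild type with acid, 24.4 and 15.1 in the untreated mutant and 11.6, 23.0 and 17.2 in the mutant with acid. The groups overlapped, and the response difference was −1.29 ± 0.65 (adjusted p = 0.166). For cox1, a subunit of cytochrome c oxidase, the response difference was −0.37 ± 0.64 (adjusted p = 0.714), and for cob, cytochrome b, it was 0.17 ± 0.63 (adjusted p = 0.871). The sign for cob turned without untreated wild-type replicate 2 (−0.07) or acid-treated wild-type replicate 2 (−0.12).

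Of 8 noncoding RNAs, a group formed after the values were seen, 5 were tested and 0 were called by edgeR (25.5% of all genes), with 0 at an unadjusted p under 0.05 (38.2% of all genes) and 0 called by DESeq2. Of the 5, 4 averaged under 10 CPM, where 14.4% of genes were called, and a count of 0 among so few says little. Their roles are known from Saccharomyces cerevisiae. SNR17, known there as the U3 RNA of ribosomal RNA processing, had a response difference of −0.15 ± 0.56 (adjusted p = 0.874). SCR1, the RNA of the signal recognition particle, stood at 6.61, 24.6 and 5.82 CPM in the untreated wild type, 4.47, 10.6 and 3.26 in the wild type with acid, 7.22 and 1.92 in the untreated mutant and 3.24, 3.27 and 2.89 in the mutant with acid. The response difference of SCR1 was 0.51 ± 0.96 (adjusted p = 0.739). RPR1, the RNA of ribonuclease P, stood at 7.06, 29.5 and 6.69 CPM in the untreated wild type, 3.33, 4.77 and 3.57 in the wild type with acid, 6.84 and 2.94 in the untreated mutant and 1.82, 2.81 and 3.03 in the mutant with acid. The response difference of RPR1 was 0.98 ± 0.85 (adjusted p = 0.427). Untreated wild-type replicate 2 was the highest library for all 5 noncoding RNAs tested. Without it the response difference turned to −0.09 for RPR1 and −0.48 for SCR1. SCR1 also turned, to −0.16, without untreated mutant replicate 2. The value for SNR17 turned to 0.50 without untreated mutant replicate 1, to 0.14 without acid-treated mutant replicate 1 and to 0.06 without acid-treated wild-type replicate 2. With any 1 library left out, RPR1 ran from −0.09 to 1.70 and SCR1 from −0.48 to 1.75.

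The counts of called genes depended on single libraries. Without untreated mutant replicate 1 there were 1616 called genes, of which 1308 were among the 1604. Without untreated mutant replicate 2 there were 1103, of which 1023 were among the 1604. In these fits the lone library left is assumed to vary like the other groups. Called in both fits were 917 of the 1604 genes (57.2%), 661 with a lower and 256 with a higher response in the mutant, and 893 (55.7%) were called in each of the 11 fits that left out 1 library. The number with a higher response fell from 630 to 340 without untreated mutant replicate 2, to 355 and 403 without acid-treated mutant replicates 2 and 3, and to 373 without acid-treated wild-type replicate 3. All 1604 genes kept their sign in the 11 fits. Each fit shares all but 1 library with the fit that made the calls, so this says little about stability.

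The untreated mutant libraries differed from each other by at least 2-fold in 198 of the 1604 called genes (12.3%) and in 10.4% of all genes tested. The difference of the changes in mean CPM, on the arithmetic scale, had the same sign as the log2 response difference in 1578 called genes (98.4%). It had the opposite sign in 26 (1.6%). Over all genes tested these shares were 94.2% and 5.8%. In 25 of those 26 the log2 response was lower in the mutant.

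**Figure D5:**
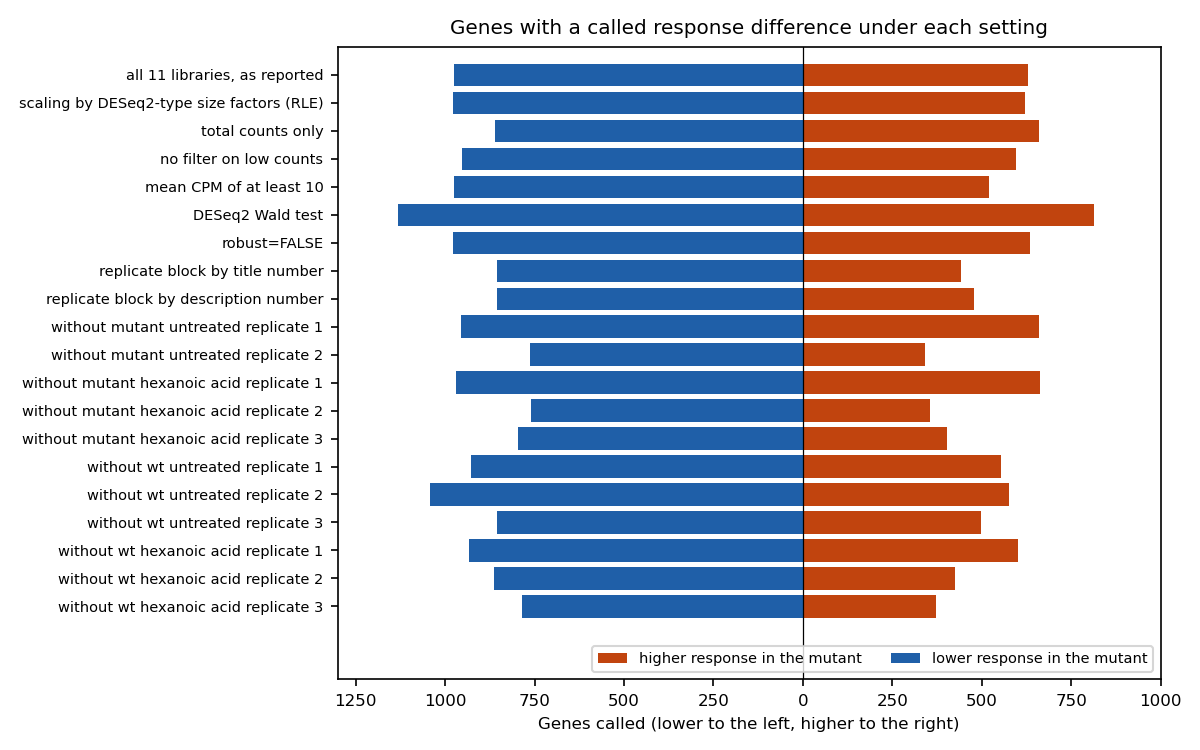
Number of genes called with a lower (blue, to the left) and a higher (orange, to the right) response in the mutant, with all 11 libraries and under each alternative. The lower count lies between 759 and 1132 and the higher count between 340 and 813.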

How the data were processed

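RNA from 11 cultures was sequenced as directional libraries on an Illumina NovaSeq instrument, per the labels' protocols. The submitters' processing notes list STAR (2.7.9a) and HTSeq (0.11.0), which align and count reads, along with DESeq2 (1.32.0), FastQC (0.11.7) and SAMtools (1.9). Which genome build and annotation served, and whether counting used strand, is not given in the sources used here, so reads of overlapping, antisense or near-identical genes are not separated. The authors deposited whole-number counts per gene, which were used for all tests, and a normalized signal that is the same table with each library divided by its own constant, as checked on the values.

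The analysis used edgeR 4.0.16 under R 4.3.3: TMM scaling, filterByExpr on the 4 groups (834 genes removed), 1 mean per group fitted to all 11 libraries, and the quasi-likelihood F test (robust=TRUE) of the difference of responses, with Benjamini-Hochberg adjustment. The standard error is the absolute log2 value divided by the square root of F. The test was tried on simulated counts of 6279 genes. The 4 groups had equal means there, apart from differences given to far fewer genes than were called in the data. The adjusted cutoff was therefore stricter, and the shares found do not carry over to the data. In the simulation the test called 5 of 100 genes given a 2-fold response difference (5%) and 76 of 99 given a 4-fold one (76.8%). In the data, 882 of 1363 genes with a fitted difference of 2-fold to 4-fold were called. Of the 87 genes called in the simulation, 6 had been given no difference. A gene that was not called is therefore not shown to respond alike in both strains. The p-values measure the spread between cultures from separate colonies, and no 2 libraries of a group agreed within sampling noise. The alternatives were other scaling, other filters, DESeq2 1.42.0, robust=FALSE, a replicate block and leaving out each library.

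The members, lists and rules were chosen with earlier results of these data known. Genes to be named were the 8 largest differences in each direction under the stated conditions, up to 4 called genes per list, and PEX10 and DGA1. Since no table used here pairs locus tags with names or products, the planned pathway lists were not built, PEX10 and DGA1 were not reported, and only 2 tags in each direction are printed. The mitochondrial list was built from names in the files, and the noncoding RNAs were added after the values were seen.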

Additional observations from a re-analysis of the deposited data

Results flagged for a closer look

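The genes below had responses to hexanoic acid that differed between the strains by the test of the difference itself. The log2 response difference, mutant minus wild type, was −10.41 for YALI0_E06589g and −9.58 for YALI0_E28259g. It was 3.82 for YALI0_B13134g and 3.71 for YALI0_C08415g. A search for single outlying libraries needs at least 4 libraries in a group, and no group had them.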

How the results depend on the processing

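The number of called genes, 1604 with all libraries, stayed within 1.5 times of that under each other scaling, filter and tool. It was 1600 with size factors of the DESeq2 type, 1519 with total counts only, 1548 with no filter, 1496 with a mean of at least 10 CPM, 1614 with robust=FALSE and 1945 with DESeq2, where 2 adjusted p-values were missing. Total counts moved the median response difference of all genes from −0.01 to 0.08. Whether the numbers in the labels pair the libraries could not be decided, as deviations within groups of 2 or 3 libraries are tied together. Of 15 same-numbered pairs across groups, 2 had deviations correlated above 0.1, and the range was −0.45 to 0.37. For the 30 other pairs the range was −0.25 to 0.49. With a replicate block by the title number 1296 genes were called, and with a block by the description number 1332. Leaving out 1 library gave 1103 to 1631 called genes, 340 to 662 with a higher and 759 to 1042 with a lower response in the mutant. The 4 locus tags with printed values kept their direction and their call under the alternatives run, except YALI0_C08415g, which lost its call in 3 fits that left out 1 library, at 3.45 to 3.53, and ranged from 2.99 to 5.15 over all 11 such fits. No called gene changed sign under any alternative in which it was tested, but the alternatives reuse the libraries on which the genes were called. The 2 untreated mutant libraries limit the comparison, since the strain difference without acid rests on them. Fitted sizes of genes near 0 counts in a group are not bounds.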
